A study of Mus musculus with 8 samples.

Results

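Maturation of the mouse testis between postnatal week 1 (1W) and postnatal week 2 (2W) was compared between mice with and without Shp2 in Sertoli cells. Of the 8 arrays of the series, 4 were used, 1 for each genotype at 1W and 1 for each genotype at 2W. Shp2f/f animals carried the floxed Shp2 (Ptpn11) allele on a C57Bl/6 background without Cre and served as controls. SCSKO animals carried the same floxed allele together with Amh-Cre. Amh-Cre acts in Sertoli cells, so the germ, Leydig, peritubular and other cells of an SCSKO testis keep Shp2. RNA came from testis tissue, and how many animals stand behind an array is not stated in the labels or the methods. Every change below was the log2 intensity at 2W minus that at 1W, and the difference of the changes was the SCSKO change minus the Shp2f/f change. Each genotype had a single array at each age, so there was no replicate error and no test. "Rose" and "fell" stand for a change of at least 2-fold (1 on the log2 scale) between arrays, and smaller changes are given as values. In whole tissue, fewer cells of a type and less RNA per cell cannot be told apart.

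Between these ages Sertoli cells slow their division, lose fetal products such as anti-Müllerian hormone and switch on androgen-dependent genes. Their junctions close the blood-testis barrier at the same time, while the first spermatogonia differentiate and enter meiotic prophase. Fetal Leydig cells decline and progenitors of adult Leydig cells appear in the interstitium. Shp2 is a phosphatase that passes signals from growth factor receptors to the ERK pathway. The question was which of the normal changes of these 2 ages were smaller, larger or reversed when Sertoli cells lacked it.

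All 4 arrays carried the markers of testis. Ddx4 and Dazl, which mark germ cells, lay between 6.37 and 10.22 (log2), Sox9 and Amh of Sertoli cells between 5.27 and 6.72, Cyp17a1 of Leydig cells between 9.45 and 11.01, and Myh11 and Acta2 of peritubular cells between 9.93 and 13.23. All of them were above the median probe set of their array, which lay between 4.82 and 4.86. Ptpn11 was at 9.10 in Shp2f/f at 1W, with a difference of -0.10 for SCSKO, and at 2W it was at 8.48 in Shp2f/f and 8.55 in SCSKO, so it was not lower in SCSKO at 2W in this mixed tissue, and its 2 probe sets at or above the array median did not lie on the same side. The exons its probes cover are not stated in the labels or the methods.

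The arrays also differed in genes of neighbouring tissue. The intensities of 23 secreted epididymal genes summed to 2537 in Shp2f/f at 1W, the low array, and to 6015 in SCSKO at 1W, 5663 in SCSKO at 2W and 7589 in Shp2f/f at 2W. The 17 measured genes of the duct epithelium summed to an intensity of 2219 in SCSKO at 1W and to 1395 to 1434 on the other 3 arrays. The 11 genes of the serous lining summed to 721 in SCSKO at 2W and to 1985 to 3051 on the others. The 24 probe sets for bacterial poly-A control RNAs had a mean of 6.44 in SCSKO at 2W and 6.67 to 6.92 on the others. No value on any array was 0. The part of these differences in the results below was not tested, and counts are given with and without 113 genes of epididymis, duct and serous lining. Some of the 113 were taken by family name, such as Defb, Spink and Ceacam, so not every member need be made in these tissues.

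Over 18193 genes, 535 (2.94%) passed 2-fold between 1W and 2W in Shp2f/f. Of these maturation genes 335 (1.84% of all genes) were higher at 2W and 200 (1.10%) were lower. In SCSKO 920 genes (5.06%) passed 2-fold, 389 (2.14%) higher and 531 (2.92%) lower. Most maturation genes went the same way in both genotypes. The sign was the same for 304 of the 335 rises (90.7%) and 191 of the 200 falls (95.5%), and the change reached 2-fold the same way in SCSKO for 193 rises (57.6%) and 109 falls (54.5%). Across all genes, which are not independent replicates, the 2 changes had a Pearson correlation of 0.65 and a Spearman correlation of 0.54, as a description.

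The 2 changes differed by at least 2-fold for 436 genes (2.40%). The SCSKO change was higher for 125 of them (0.687%) and lower for 311 (1.71%). Without the epididymal, duct and serous lining genes these counts were 125 and 277. Over the interval from embryonic day 16.5 (E16.5) to postnatal day 3 (D3), which shares no array with this one, 172 genes (0.945%) differed by 2-fold, 142 of them (0.781%) higher, and from D3 to 1W, which shares the 1W arrays, 119 genes (0.654%). The median difference over all genes was 0.01 and its robust SD was 0.28. At the threshold itself, Pgbd5 was just inside at a difference of 1.0015 and Strip2 just outside at 0.99969.

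Of the 535 maturation genes, 412 (77.0%) changed within 2-fold of Shp2f/f in SCSKO, 71 (13.3%) had a smaller change, 32 (5.98%) a larger one and 20 (3.74%) a reversed one, meaning at least 1.5-fold the other way. Among the rises 253 (75.5%) were close, 51 (15.2%) smaller, 15 (4.48%) larger and 16 (4.78%) reversed, and among the falls 159 (79.5%) were close, 20 smaller, 17 (8.50%) larger and 4 (2.00%) reversed. Among the 17658 genes under 2-fold in Shp2f/f, 86 (0.487%) had a 2-fold higher change in SCSKO and 227 (1.29%) a 2-fold lower one. These counts depend on which genotype chose the genes, because a gene chosen for a large value on 2 arrays tends to a smaller one on 2 others. When the 920 genes were chosen by the SCSKO change, 237 (25.8%) had a smaller change in Shp2f/f, 10 (1.09%) a larger one and 20 (2.17%) a reversed one. When genes were chosen by the mean of both changes, 130 had a larger change in SCSKO, 34 a smaller one and 4 a reversed one. The balance of smaller against larger changes thus depended on the choice, and the classes are used below to name genes. The 4 reversed falls were Tesc, Star, Cyp17a1 and Map3k21, which codes for a kinase of the JNK pathway and went from 6.40 to 5.08 in Shp2f/f and from 5.98 to 7.04 in SCSKO.

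**Figure D1:**
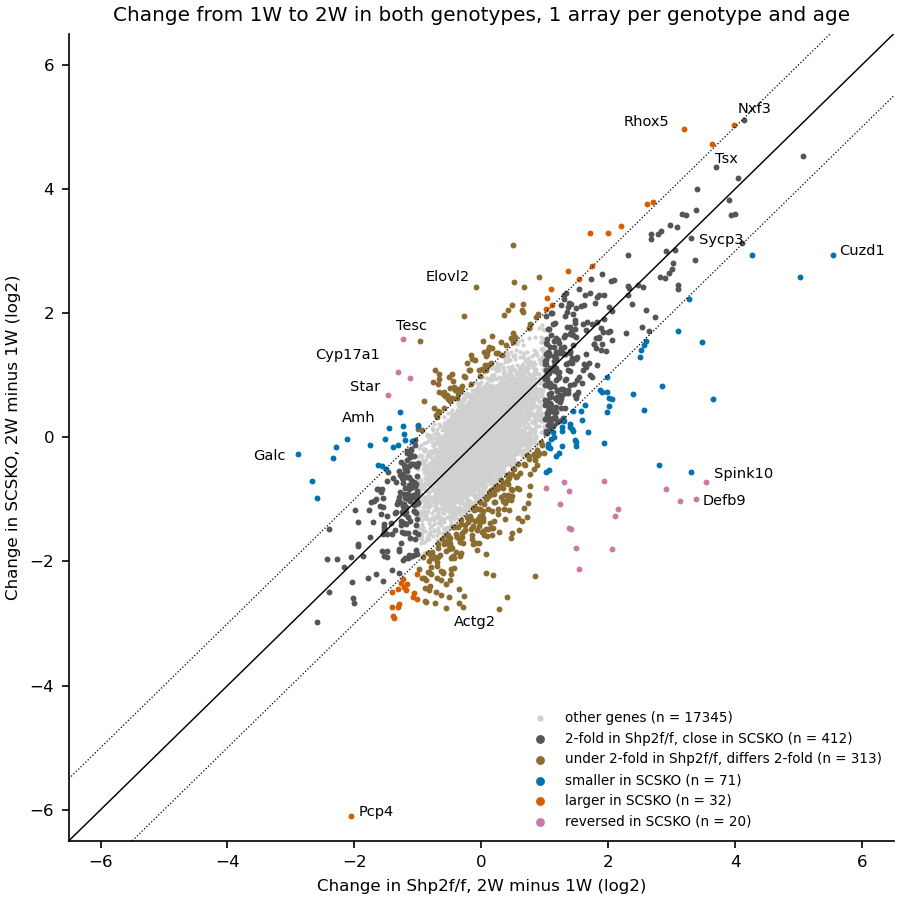
Change from 1W to 2W of 18193 genes in Shp2f/f (horizontal axis) and SCSKO (vertical axis), both in log2 units, 1 array per genotype and age. The solid line marks equal changes and the dotted lines a 2-fold difference. Coloured points are the 71 smaller, 32 larger and 20 reversed changes and the 313 genes under 2-fold in Shp2f/f that differed by 2-fold.

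Sertoli genes that are high in the fetal and newborn testis were lower in SCSKO at 1W and higher at 2W in the median, by -0.40 and 0.25, so their normal decline was not seen. Of 20 measured genes, 5 fell in Shp2f/f (Amh, Tesc, Hsd17b1, Ncam1 and Lhx9) and 2 fell in SCSKO (Krt18 and Ncam1), and the median change was -0.42 in Shp2f/f and 0.23 in SCSKO, where all genes had -0.01 in both. The SCSKO change was the higher one for 16 of the 20 genes, against 9405 of 18193 over all genes. It was 2-fold higher for 8 and 2-fold lower for Krt18 and Ncam1, which are also made by epithelia and by nerves and muscle. Over all genes these shares were 0.687% and 1.71%. The difference of -1.19 for Ncam1 was -0.58 as the mean of its 7 probe sets.

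Tesc, which codes for the calcium-binding protein tescalcin of the early Sertoli cell, went from 7.97 to 6.73 in Shp2f/f and from 5.66 to 7.25 in SCSKO. The low array was SCSKO at 1W, and by 2W the SCSKO array was the higher of the pair. Changes of -1.24 and 1.59 gave a difference of 2.83, and both probe sets of the gene lay on the same side. Amh, the hormone that removes the female ducts of the embryo, fell from 6.72 to 5.27 in Shp2f/f and went from 6.28 to 6.43 in SCSKO. Its loss in the second week was therefore seen in 1 genotype, with a difference of 1.59. Hsd17b1, a steroid dehydrogenase of fetal Sertoli cells, fell from 7.86 to 5.27 in Shp2f/f and went from 7.07 to 6.09 in SCSKO, a difference of 1.61.

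Other genes of this list were under 2-fold in Shp2f/f but differed by 2-fold. Cst9, which codes for the cystatin testatin, went from 11.57 to 12.23 in Shp2f/f and rose from 10.26 to 12.41 in SCSKO. Cited1, a transcription cofactor, went from 8.09 to 8.20 in Shp2f/f and rose from 7.12 to 8.57 in SCSKO. Dhh, the hedgehog ligand that Sertoli cells send to Leydig and peritubular cells, went from 8.59 to 7.91 in Shp2f/f and from 8.08 to 8.94 in SCSKO. For all 3 the SCSKO array was the lower one at 1W and the higher one at 2W. The difference of 1.54 for Dhh was 0.87 as the mean of its 2 probe sets. Mro and Sox8 followed with differences of 1.23 and 1.07. Wt1 and Gata4, which Sertoli cells keep through life, had differences of -0.23 and 0.27, under the robust SD of all genes.

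Among genes of the maturing and adult Sertoli cell more passed 2-fold upward in SCSKO. Of 28 measured genes, 7 rose in Shp2f/f and 14 in SCSKO, and the median change was 0.39 and 1.01. In the median SCSKO stood at -0.22 against Shp2f/f at 1W and at 0.33 at 2W, so both ages entered the difference. The difference was above 0 for 24 genes, against 9405 of 18193 over all genes. It was at least 2-fold higher for 8 (0.687% over all genes) and at least 2-fold lower for 0 (1.71% over all genes). Besides the genes given below these 8 held Gstm6, a glutathione transferase, Corin, a membrane protease, and Tubb3, a beta tubulin, with differences of 1.48, 1.27 and 1.04. The 4 genes with the lower change were Cldn11, Cldn3, Il1a and Nkd1. Among 13 androgen-regulated genes, 12 of which are also in the list of maturing Sertoli cells, 6 rose in Shp2f/f and 8 in SCSKO, with medians of 1.00 and 1.39. With the mean of a gene's probe sets these medians were 0.12 and 1.08, and the median difference was 0.60 in place of 0.73.

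Rhox5, an X-linked homeobox gene that androgen switches on in Sertoli cells, rose from 4.71 to 7.90 in Shp2f/f and from 4.96 to 9.92 in SCSKO. The 1W arrays differed by 0.24 and the 2W arrays by 2.02, so the difference of 1.77 came from 2W. Tsx, another X-linked Sertoli gene, rose from 3.87 to 7.51 and from 3.66 to 8.39, a difference of 1.09. Nxf3, a nuclear RNA export factor made in Sertoli cells, rose from 3.80 to 7.79 and from 3.77 to 8.80, a difference of 1.04. Except for Rhox5 in SCSKO, these 3 genes began below the array median at 1W, where a log2 value depends most on the background taken off. With 16 added to every intensity the differences were 1.79 for Rhox5, 0.92 for Tsx and 0.98 for Nxf3.

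Serpina5, a serine protease inhibitor, rose by 1.73 in Shp2f/f and 2.55 in SCSKO. Drd4, a dopamine receptor, rose by 1.37 and 2.10, Gata1, a transcription factor of Sertoli cells in the first wave, by 1.12 and 1.83, and Eppin, a protease inhibitor, by 2.97 and 3.41. None of these 4 differed by 2-fold, and all of them had the higher change in SCSKO. Galc, the lysosomal galactosylceramidase, was the 1 gene of the maturing Sertoli list that fell in Shp2f/f. It fell from 6.49 to 3.60 there and went from 5.90 to 5.63 in SCSKO. The difference of 2.62 was 0.81 as the mean of its 3 probe sets. In SCSKO 1 other gene of the list fell. Changes below 0 were seen for 8 of the 28 measured genes in Shp2f/f and 4 in SCSKO.

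Hormone genes of the Sertoli cell gave the same order. Inha, the inhibin alpha subunit, went from 9.50 to 9.65 in Shp2f/f and rose from 9.10 to 10.30 in SCSKO. Fshr, the receptor for follicle-stimulating hormone, went from 5.23 to 4.92 and from 4.66 to 5.42. Shbg, which binds androgen, went from 7.50 to 8.08 and rose from 6.80 to 8.36. In each case SCSKO was the lower array at 1W and the higher at 2W, and the differences were 1.06, 1.08 and 0.97. Gja1, the gap junction protein connexin of the barrier, had a change of -0.28 in Shp2f/f and 0.48 in SCSKO, and Kitl, the ligand of the Kit receptor, had 0.12 and 0.79, although the 4 probe sets of Kitl at or above the median did not all lie on the same side.

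Rhox5 and Tsx lie on the same chromosome and moved together, so their promoters are shown with the short motif of the androgen receptor, AGAACA on either strand, in capitals. The 250 bases before the start are given from RefSeq on build GRCm38.p6, at chrX:37754358-37754607 for Rhox5 and at chrX:103414217-103414466 for Tsx, both on the plus strand.
Rhox5: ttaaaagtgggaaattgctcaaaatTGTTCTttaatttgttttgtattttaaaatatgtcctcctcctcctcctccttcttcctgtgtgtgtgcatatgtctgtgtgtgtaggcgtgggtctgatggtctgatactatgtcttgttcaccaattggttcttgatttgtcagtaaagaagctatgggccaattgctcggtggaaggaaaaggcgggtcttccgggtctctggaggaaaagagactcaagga
Tsx: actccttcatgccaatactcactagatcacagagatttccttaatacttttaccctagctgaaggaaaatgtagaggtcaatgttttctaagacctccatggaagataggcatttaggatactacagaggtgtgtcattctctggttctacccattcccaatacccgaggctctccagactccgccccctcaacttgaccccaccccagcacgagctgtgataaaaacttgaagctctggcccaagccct
The letters were found once in Rhox5, starting 225 bases before the start, and 0 times in Tsx. Of the 11 androgen-regulated Sertoli genes with a promoter in the table, 2 (18.2%) held them, Rhox5 and Serpina5, and 4912 of 27025 genes in the table did (18.2%). Among genes measured on the arrays 2125 of 14452 did (14.7%). A match of these letters is a description and not a binding site.

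**Figure D2:**
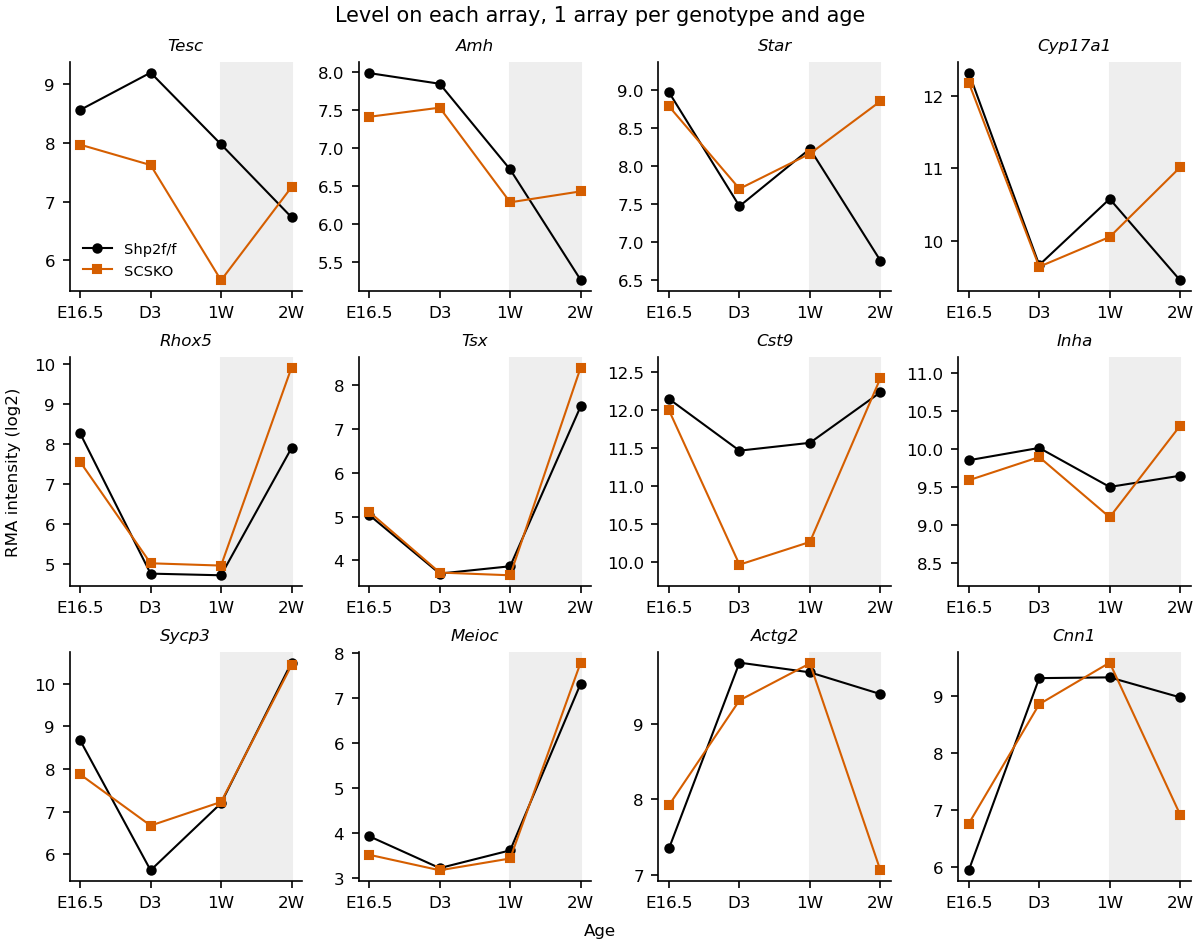
Level of 12 genes (log2 RMA intensity, vertical axis) on the 8 arrays by age (horizontal axis), with circles for Shp2f/f, squares for SCSKO, 1 array each, the interval from 1W to 2W shaded and each panel on its own scale. Tesc, Amh, Star and Cyp17a1 went down in Shp2f/f and not in SCSKO. Rhox5, Tsx, Sycp3 and Meioc rose in both, and Actg2 and Cnn1 fell in SCSKO.

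Genes at the start of androgen synthesis also went the other way. Of 15 measured genes of Leydig cells and steroid synthesis, 3 fell in Shp2f/f (Star, Cyp17a1 and Hsd17b3) and 3 fell in SCSKO (Hsd17b3, Thbs2 and Sult1e1), and Vcam1, an adhesion molecule, rose in both. The median change was -0.29 in Shp2f/f and 0.30 in SCSKO. The difference was above 0 for 11 genes, 2-fold higher for 3 and 2-fold lower for 2. Over all genes it was above 0 for 9405 of 18193, 2-fold higher for 0.687% and 2-fold lower for 1.71%.

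Star, which carries cholesterol into mitochondria, fell from 8.23 to 6.76 in Shp2f/f and went from 8.16 to 8.85 in SCSKO. Cyp17a1, the enzyme that turns progestagens into androgens, fell from 10.58 to 9.45 in Shp2f/f and went from 10.05 to 11.01 in SCSKO. The SCSKO array stood at -0.06 for Star and -0.53 for Cyp17a1 against Shp2f/f at 1W, and at 2W it was higher by 2.09 and 1.56. All 3 probe sets of Star lay on the same side. Fdx1, the ferredoxin that feeds electrons to Cyp11a1, went from 11.36 to 10.98 in Shp2f/f and from 11.30 to 11.93 in SCSKO, a difference of 1.01. Cyp11a1, which cuts the cholesterol side chain, had changes of -0.38 and 0.36, and Scarb1, the receptor for high-density lipoprotein, 0.10 and 0.81.

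The list did not move as a block. Hsd3b1, the next enzyme of the path, had changes of -0.15 and 0.21. Hsd17b3, which makes testosterone, fell in both genotypes, by 2.00 in Shp2f/f and 1.17 in SCSKO. Sult1e1, which inactivates oestrogen, went from 6.74 to 6.96 in Shp2f/f and fell from 7.55 to 6.51 in SCSKO, and Hsd11b1, which acts on glucocorticoids, had changes of 0.56 and -0.63. Their differences were -1.26 and -1.19.

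Genes of cholesterol synthesis and uptake had small differences in 1 direction. For all 19 measured genes the SCSKO change was the higher one, against 9405 of 18193 over all genes. The median difference was 0.41, and 0 of the 19 reached 2-fold. The median change was -0.13 in Shp2f/f and 0.19 in SCSKO. Dhcr7, the last reductase of the path, went from 8.16 to 8.18 in Shp2f/f and from 7.75 to 8.72 in SCSKO, and Cyp51, a sterol demethylase, had changes of -0.56 and 0.19. Insig1, which holds the path in check, had 0.17 and 0.80. The genes share a regulator, so they are not 19 separate observations.

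Genes of germ cell entry into meiosis rose in both genotypes, with a somewhat higher median in SCSKO. Of 38 measured genes of meiotic prophase, 17 rose in Shp2f/f and 22 in SCSKO, and 0 fell in either. The median change was 0.92 and 1.19. Of the 17 rises, 16 were within 2-fold in SCSKO and 1, Sycp2, was larger. Mei4, which acts in break formation, and Ccnb3, a cyclin, also had a 2-fold higher change in SCSKO, by 1.18 and 1.09. In all 3 of the 38 genes were 2-fold higher and 0 lower, where the shares over all genes were 0.687% and 1.71%. The difference was above 0 for 24 of the 38, against 9405 of 18193 over all genes.

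Sycp3, an axial element of the synaptonemal complex, rose from 7.20 to 10.50 in Shp2f/f and from 7.23 to 10.44 in SCSKO. These are rises of 9.87-fold and 9.26-fold, and the arrays of the genotypes lay together at both ages. Meioc, which holds cells in meiotic prophase, rose from 3.62 to 7.32 and from 3.44 to 7.79. Sycp1, which forms the transverse filaments, rose by 2.78 and 3.27, and Hormad1, an axis protein, by 3.37 and 2.86. Sycp2, the partner of Sycp3, rose from 4.74 to 7.44 and from 4.52 to 8.31, a difference of 1.08 that was 0.94 with 16 added to the intensities.

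Genes of differentiating spermatogonia and of germ cells in general had close medians. Among 14 genes of differentiating spermatogonia 5 rose in Shp2f/f and 4 in SCSKO, with medians of 0.63 and 0.70, and 0 differed by 2-fold. Kit, the receptor that marks differentiation, rose by 1.15 and 1.14. Stra8, which retinoic acid switches on before meiosis, rose from 6.34 to 9.07 in Shp2f/f and from 7.12 to 9.06 in SCSKO, so the arrays met at 2W and the smaller change of 1.93 came from a higher level at 1W. Of 25 general germ cell genes 11 rose in Shp2f/f and 12 in SCSKO, with medians of 0.77 and 0.85. Spata4 and Pdcl2, genes of later germ cells, were among the exceptions. Pdcl2 rose from 2.60 to 6.07 in Shp2f/f and from 2.33 to 3.86 in SCSKO, and Spata4 from 3.04 to 4.96 in Shp2f/f, while it went from 3.30 to 3.20 in SCSKO. In the list of 26 pachytene genes that holds Pdcl2, the median changes were 0.09 and 0.02.

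The fall of cell division genes was shallower in SCSKO, with no gene past 2-fold in the difference. Of 36 measured genes 11 fell in Shp2f/f and 4 in SCSKO (Ccnb2, Aurkb, Prc1 and Ube2c), and the median change was -0.79 and -0.46. The difference was above 0 for 32 genes, against 9405 of 18193 over all genes. Mki67, the proliferation antigen, went from 9.07 to 8.15 in Shp2f/f and from 8.97 to 8.56 in SCSKO. Top2a, the topoisomerase of dividing cells, went from 9.49 to 8.58 and from 9.35 to 8.94. At 1W both genes were lower in SCSKO and at 2W both were higher. With the mean of a gene's probe sets the median difference of the list was 0.14 in place of 0.26.

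**Figure D3:**
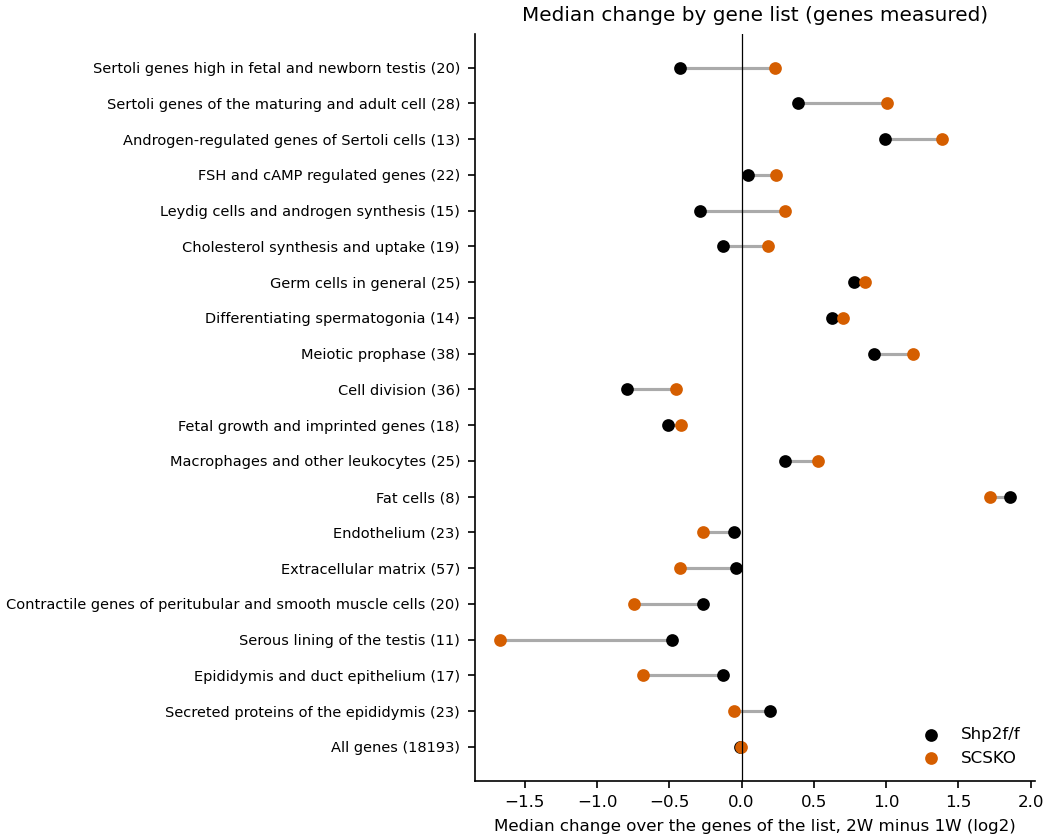
Median change from 1W to 2W (log2, horizontal axis) over the measured genes of 19 lists and over all genes, with black points for Shp2f/f and orange points for SCSKO and the number of genes in brackets. The Sertoli and Leydig lists lie to the right in SCSKO and the peritubular and serous lining lists to the left. Meiotic prophase has medians of 0.92 in Shp2f/f and 1.19 in SCSKO.

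Contractile genes of peritubular and smooth muscle cells were held in Shp2f/f and lower at 2W in SCSKO. For all 20 measured genes the SCSKO change was the lower one, against 8788 of 18193 over all genes. The median change was -0.26 in Shp2f/f and -0.74 in SCSKO. In the list 6 genes were 2-fold lower, where 1.71% of all genes were. Of the 20, 0 fell and 1, Tnnt2, rose in Shp2f/f, and 6 fell and 0 rose in SCSKO. The summed intensity of the list was 23843 in SCSKO at 2W and 39481 to 42329 on the other 3 arrays.

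Actg2, the gamma actin of smooth muscle, went from 9.68 to 9.39 in Shp2f/f and fell from 9.80 to 7.06 in SCSKO. Cnn1, calponin, went from 9.33 to 8.98 and fell from 9.59 to 6.92. The 3 other arrays lay close together for both genes, and SCSKO at 2W was apart. Myh11, the smooth muscle myosin heavy chain, went from 10.65 to 11.05 in Shp2f/f and from 10.66 to 9.93 in SCSKO. Tagln, transgelin, went from 12.54 to 11.89 and fell from 12.55 to 10.65. Acta2, the alpha actin that peritubular cells make in quantity, had a difference of -0.53, with changes of -0.03 and -0.56. Tnnt2, a troponin, rose from 8.06 to 9.64 in Shp2f/f and went from 7.11 to 7.39 in SCSKO. As the mean of probe sets the difference was -0.73 for Tnnt2 and -0.94 for Myh11, in place of -1.31 and -1.14.

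The promoters of a contractile gene with a CArG box, the site of serum response factor, and of a called one without are shown with the box in capitals. Myl9, a myosin light chain with changes of 0.26 and -0.33, lies at chr2:156775214-156775463, and Cnn1 at chr9:22099003-22099252, both on the plus strand of GRCm38.p6 and from RefSeq.
Myl9: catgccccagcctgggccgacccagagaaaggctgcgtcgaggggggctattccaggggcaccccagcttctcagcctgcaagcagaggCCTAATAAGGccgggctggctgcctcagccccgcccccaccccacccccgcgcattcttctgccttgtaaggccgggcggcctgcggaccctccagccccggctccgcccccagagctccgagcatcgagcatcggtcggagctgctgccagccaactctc
Cnn1: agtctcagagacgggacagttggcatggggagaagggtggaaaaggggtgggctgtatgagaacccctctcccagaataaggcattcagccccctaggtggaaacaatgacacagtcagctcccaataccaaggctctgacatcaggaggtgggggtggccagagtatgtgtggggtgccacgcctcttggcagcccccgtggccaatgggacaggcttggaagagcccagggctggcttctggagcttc
The box starts 161 bases before the start in Myl9 and was found 0 times in these 250 bases of Cnn1. It was in 1 of the 16 contractile genes with a promoter in the table (6.25%), and in 439 of 27025 genes in the table (1.62%). Among genes measured on the arrays it was in 207 of 14452 (1.43%). Actg2, Tagln and Myh11 had no entry.

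The serous lining and matrix moved with the contractile genes. Of 11 measured genes of the serous lining 1, Muc16, fell in Shp2f/f and 10 fell in SCSKO, with medians of -0.48 and -1.67. Of the 11, 9 differed by 2-fold, all lower, where 1.71% of all genes were 2-fold lower. Upk3b, a uroplakin of mesothelium, went from 9.94 to 9.38 in Shp2f/f and fell from 10.24 to 7.49 in SCSKO, and Msln, mesothelin, went from 7.53 to 7.04 and fell from 7.55 to 5.43. Of 57 matrix genes 4 fell in Shp2f/f (Postn, Vcan, Mfap2 and Emilin1) and 16 in SCSKO, and 11 differed by 2-fold lower and 1 higher. Over all genes these last 2 shares were 1.71% and 0.687%. Fmod, a small proteoglycan of collagen, went from 11.20 to 11.38 and fell from 11.35 to 9.90, with 6 probe sets on the same side. Lama1, a laminin chain of the tubule wall, was the 1 matrix gene that was higher, from 6.17 to 6.64 in Shp2f/f and from 5.32 to 6.91 in SCSKO.

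The capsule of the testis holds cells of all 3 kinds, so the lists may share a source. The poly-A control RNAs also had a lower mean in SCSKO at 2W, and their mean change was 0.24 in Shp2f/f and -0.25 in SCSKO. Its part in the 3 lists was not tested. Other lists were lower too. Of 12 skeletal muscle genes, 7 of which reached the array median, 11 had the lower change in SCSKO and 3 were 2-fold lower. Their median difference was -0.48. Among 34 integrin and focal adhesion genes 26 had the lower change and 2 were 2-fold lower. Endothelial genes had medians of -0.05 and -0.27, with the lower change for 16 of 23 and 0 past 2-fold in the difference. Over all genes 8788 of 18193 had the lower change in SCSKO, and 1.71% were 2-fold lower.

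Larger falls came from a high 1W level or from a low 2W level. Among the 17 falls that were larger in SCSKO, Pcp4, which binds calmodulin, fell from 7.61 to 5.55 in Shp2f/f and from 10.70 to 4.60 in SCSKO. Its difference of -4.04 lay mostly at 1W, where SCSKO was 3.09 above Shp2f/f. Npy, a neuropeptide, also started high in SCSKO, at 7.29 against 5.07, and fell by 1.02 and 2.61. The others of the 10 with the largest difference, Fhod3, Npnt, Rtl3, Muc16, Alcam, Ntrk3, Ndnf and Meis2, were 0.16 (Ndnf) to 0.51 (Ntrk3) above Shp2f/f at 1W, and at 2W they had values of -0.71 (Meis2) to -1.36 (Fhod3) against it. Npnt, nephronectin, is a matrix ligand of integrins, Alcam an adhesion molecule and Ntrk3 a neurotrophin receptor. As the mean of a gene's probe sets the difference was under 2-fold for Npnt (-0.85), Alcam (-0.93), Ntrk3 (-0.30) and Ndnf (-0.70). Of 227 genes under 2-fold in Shp2f/f with a lower change in SCSKO, Sfrp2, an inhibitor of Wnt signals, went from 9.85 to 9.51 and fell from 9.97 to 7.53, and Ptger3, a prostaglandin receptor, went from 6.97 to 6.70 and fell from 7.65 to 5.09.

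**Figure D4:**
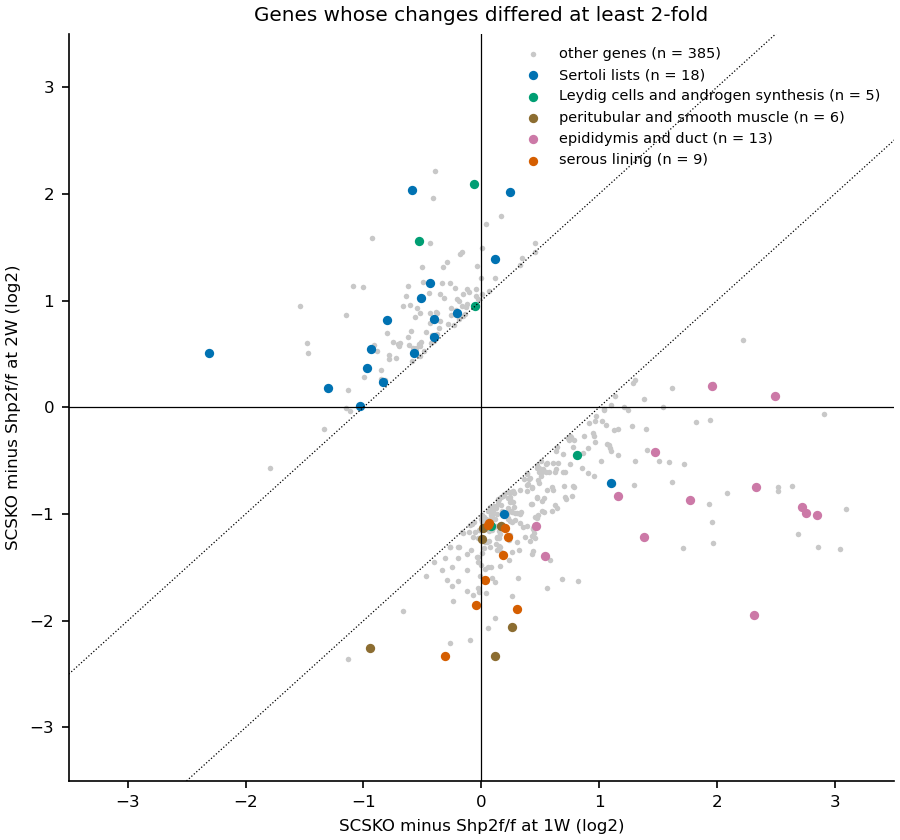
SCSKO minus Shp2f/f (log2) at 1W (horizontal axis) and at 2W (vertical axis) for the 436 genes whose changes differed at least 2-fold, which lie outside the dotted lines by selection. Epididymal and duct genes lie to the right, high in SCSKO at 1W, serous lining and contractile genes lie low at 2W, and most Sertoli genes lie in the upper left.

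The age that carried the difference varied between groups. At 1W the SCSKO array differed by 2-fold from Shp2f/f for 91 genes (0.500%), of which 67 (0.368%) were higher and 24 (0.132%) lower, and at 2W for 265 genes (1.46%), of which 67 (0.368%) were higher and 198 (1.09%) lower. Of the 125 genes with the higher change in SCSKO, 90 had the larger genotype difference at 2W and 35 at 1W, with medians of -0.43 at 1W and 0.88 at 2W. Of the 311 with the lower change, 218 had the larger difference at 2W, with medians of 0.33 and -0.98. For 107 of the 125 and 255 of the 311 genes the genotypes stood on opposite sides at the 2 ages. Choosing genes by the difference of 2 differences favours such a pattern, so these counts are given as a description.

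Of the 16 reversed rises 10 belonged to the epididymal, duct and serous lining genes, which are 113 of the 18193 genes. This set was chosen after the data were seen. It took in members of gene families such as Defb, Spink and Ceacam by name, so the overlap is a description. Of the 51 smaller rises 8 belonged to them. Without these genes 6 reversed and 43 smaller rises were left. The 6 reversed ones were also higher in SCSKO at 1W, by 0.55 (Kcnj15) to 2.63 (Tmed6). Defb9, a beta-defensin of the epididymis, was at 2.98 and 6.36 in Shp2f/f at 1W and 2W and at 6.02 and 5.03 in SCSKO. Spink8, a protease inhibitor made in the epididymis, was at 8.45 and 11.35 in Shp2f/f and at 11.21 and 10.37 in SCSKO. The level in SCSKO at 1W was already near that of Shp2f/f at 2W, and the reversal was mostly the 1W array. Cuzd1, an epithelial gene, rose in both, from 3.37 to 8.90 and from 4.75 to 7.68.

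Duct epithelium itself showed the high 1W array of SCSKO and no rise in Shp2f/f. Cdh16, a cadherin of kidney and duct epithelium, went from 6.48 to 6.42 in Shp2f/f and fell from 8.44 to 6.62 in SCSKO. Epcam, an adhesion molecule of epithelia, went from 6.94 to 7.53 and fell from 8.42 to 7.11. Cldn8, a tight junction protein of such ducts, went from 4.33 to 5.18 and fell from 6.66 to 4.43. Of the 17 duct genes 0 fell in Shp2f/f and 7 fell in SCSKO, and 5 were 2-fold lower in the difference, Cdh16, Krt7, Krt19, Epcam and Cldn8. Over all genes 1.71% were 2-fold lower.

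**Figure D5:**
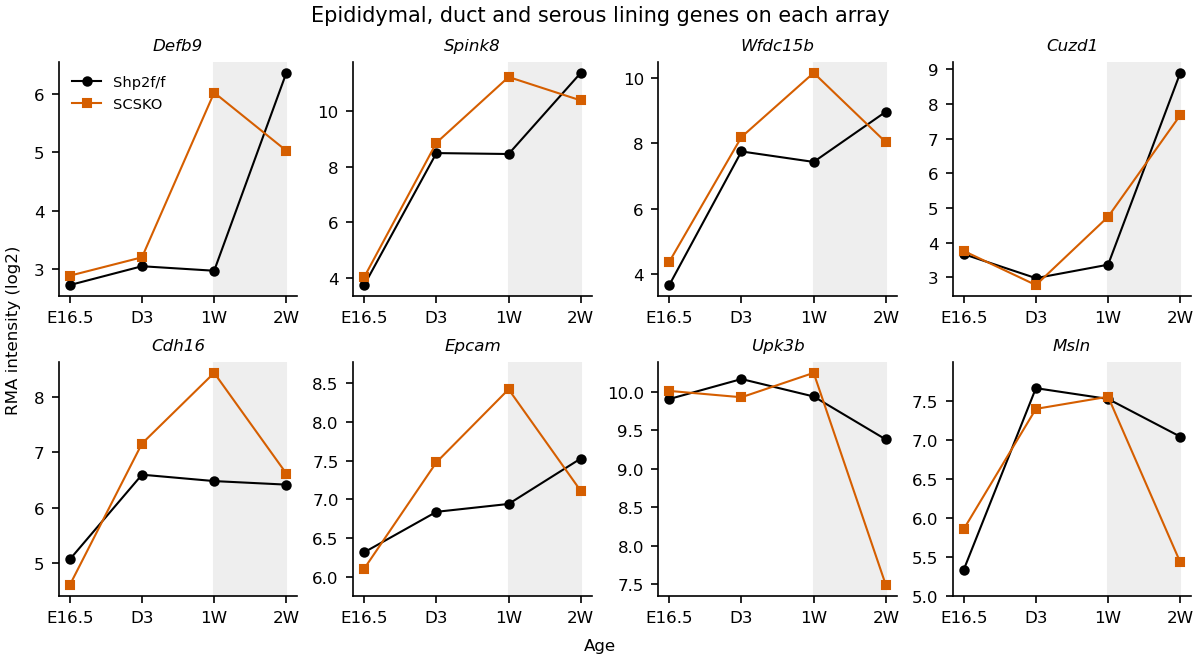
Level of 8 genes of the epididymis (Defb9, Spink8, Wfdc15b, Cuzd1), duct (Cdh16, Epcam) and serous lining (Upk3b, Msln) on the 8 arrays (log2 RMA intensity against age), with circles for Shp2f/f, squares for SCSKO, the interval from 1W to 2W shaded and each panel on its own scale. Cdh16 was at 8.44 and Epcam at 8.42 in SCSKO at 1W, their highest arrays, and Upk3b was at 7.49 and Msln at 5.43 in SCSKO at 2W.

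Outside the epididymal genes, the smaller rises held macrophage genes. Retnla, a secreted product of alternatively activated macrophages, rose from 4.08 to 6.64 in Shp2f/f and went from 4.14 to 4.57 in SCSKO. Vsig4, a complement receptor, had changes of 1.98 in Shp2f/f and 0.74 in SCSKO, and Cd163, the haemoglobin scavenger receptor, had 1.91 and 0.73. These are receptors of resident macrophages. The list of 25 leukocyte genes did not follow them, with medians of 0.30 and 0.53 and a higher SCSKO change for 19 genes, and the 4 genes with a 2-fold lower change were these 3 and Lyve1, the hyaluronan receptor. Mrc1, the mannose receptor, had 0.45 and 1.24, and the antigen-presenting genes Cd74 and H2-Aa had 0.45 and 1.11, and 0.46 and 1.08. Marco, a scavenger receptor, went from 5.51 to 4.84 and from 5.33 to 6.28, a difference of 1.62 that averaged 0.76 over its 2 probe sets.

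Among genes that changed under 2-fold in Shp2f/f, 86 had a change at least 2-fold higher in SCSKO. Elovl2, which lengthens polyunsaturated fatty acids, went from 7.02 to 6.94 in Shp2f/f and rose from 5.48 to 7.89 in SCSKO, a difference of 2.49. Ddx43, an RNA helicase of germ cells, went from 5.67 to 6.19 and rose from 4.20 to 6.69. Slc26a7, an anion exchanger, went from 8.49 to 7.76 and rose from 7.98 to 9.07, and Hdc, which makes histamine, went from 5.78 to 6.27 and rose from 5.50 to 7.63. Elovl2 and Ddx43 were low in SCSKO at 1W, and Slc26a7 and Hdc were high at 2W. Tmem184a, Prss50, Serpina3a and Wnk3 had differences between 1.62 and 2.22.

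Junction genes did not go one way. Of 34 tight junction genes 2 were 2-fold higher in the difference, Cgn and Mpp5, and 3 were 2-fold lower. Over all genes these shares were 0.687% and 1.71%. The median changes of the list were 0.00 in Shp2f/f and -0.08 in SCSKO. Cgn, cingulin of the junction plaque, went from 5.97 to 6.05 in Shp2f/f and rose from 5.77 to 7.07 in SCSKO. The differences of Cgn and Mpp5, both 1.23, averaged 0.57 and 0.63 over their probe sets. Cldn11, the main claudin of the blood-testis barrier, went from 7.64 to 8.11 in Shp2f/f and from 8.26 to 8.29 in SCSKO, and Ocln, occludin, had changes of 0.30 and 0.96. F11r, a junctional adhesion molecule, had 0.12 and -0.32. The 3 lower genes, Cldn8, Cldn15 and Cldn10, are claudins that other epithelia make, and Cldn8 is also counted above with the ducts.

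Secreted factors of the stem cell niche were divided too. Gdnf, which maintains spermatogonial stem cells, was at 6.44 and 6.31 in Shp2f/f and at 6.35 and 6.17 in SCSKO, and Etv5, a transcription factor that GDNF induces, had changes of 0.55 and 0.57. Their differences were -0.06 and 0.02. Bmp4, a ligand of the transforming growth factor family, went from 8.59 to 9.14 in Shp2f/f and from 8.74 to 7.92 in SCSKO, a difference of -1.38. Inhba, the activin subunit, fell from 10.19 to 8.71 in Shp2f/f and went from 10.25 to 9.70 in SCSKO. Of 29 measured factors 3 were 2-fold higher in the difference, Amh, Dhh and Inha, and 1 was lower, Bmp4. Over all genes these shares were 0.687% and 1.71%. Amh, Dhh and Inha are Sertoli genes already described above.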

How the data were processed

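Testis RNA of Shp2f/f and SCSKO mice was hybridized to Affymetrix mouse arrays, with a single array for each genotype and age, and 45101 probe sets were read from each. The authors deposited linear intensity values, normalized by RMA per the labels. Its version is not stated in the labels or the methods. The labels name an RNeasy kit for the RNA and the study's methods name TRIzol. Log2 was taken here without an added constant. Of the probe sets 34958 had 1 gene symbol, 932 had several and 9211 had none, and only the first were named. For each of 18193 genes the probe set brightest on average across the 8 arrays was kept.

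The change from 1W to 2W was computed in each genotype and subtracted. Groups came from the sample labels. Genes past 2-fold in Shp2f/f were classed by the SCSKO change as smaller, larger (a 2-fold difference), reversed (at least 1.5-fold the other way) or close. No test was run, since each group held 1 array, which sets the precision. The text names genes from the 10 with the largest difference in each class (with an array at or above its median and no bright probe set on the other side), up to 6 members of each list by the size of their difference or of their Shp2f/f change, and genes the study names. Any further list member or marker, such as Gata4, Hsd3b1, Scarb1, Ocln or Cd74, was named after its values were seen. The 36 lists, of which 707 of 785 genes were measured, and the genes compared were chosen with earlier results of these data known.

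The alternatives were other folds, the mean of a gene's probe sets, probe sets as the unit, quantile and cyclic loess normalization, 16 added to the intensities, and genes chosen by the other genotype or by the mean of both. Leaving out epididymal, duct and serous lining genes was chosen after seeing the data. The classing was tested on simulated data. Promoters were the 250 bases before the start in RefSeq on GRCm38.p6. The first entry of a gene was printed, and a gene was counted if any of its entries held the motif. Analyses used Python 3.11.15, numpy 2.4.6, pandas 2.3.3, scipy 1.17.1, matplotlib 3.10.9, R 4.3.3 and limma 3.58.1.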

Additional observations from a re-analysis of the deposited data

Results flagged for a closer look

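In 20 genes and 2 gene lists the arrays of the genotypes moved in opposite directions from 1W to 2W. With 1 array per genotype and age the difference was not tested for any of them. Among rises in Shp2f/f that went down in SCSKO, the difference of the changes (SCSKO minus Shp2f/f, log2) was -4.38 for Defb9, -4.16 for Defb1, -3.86 for Defb2, -3.31 for Defb11, -3.27 for Defb29 and -2.84 for Defb10, which are beta-defensins of the epididymis. It was -4.26 for Spink10 and -3.75 for Spink8, which are protease inhibitors, -3.65 for Wfdc15b and -3.37 for Tmed6. Among the others it was -2.89 for Acbd7, -2.64 for Ceacam10, -2.32 for Npy6r, -2.24 for Kcnj15, -2.03 for Prom1 and -1.83 for Cwh43. Among falls in Shp2f/f that went up in SCSKO, it was 2.83 for Tesc, 2.37 for Map3k21, 2.16 for Star and 2.09 for Cyp17a1. The median difference of the list of Sertoli genes of the fetal and newborn testis was 0.81, and that of the Leydig and androgen synthesis list was 0.60.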

How the results depend on the processing

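Of the 74 named genes taken from the classes, 0 changed the sign of the difference under the alternatives computed for them. Of the 45 list medians 0 were counted as changing sign, but medians near 0 were left out of that count. Other genes of the text were not in this check. The difference of Fabp4 was 0.37, and -0.09 as the mean of its probe sets. The balance of smaller against larger changes, 71 to 32, turned over with the choice of genes. Quantile and cyclic loess normalization left all 9 counts within 1.5 times, 45 of 45 list medians and 74 of 74 named genes in place. Of the 74 named genes 42 moved with 16 added to the intensities and 15 with the mean of a gene's probe sets, where moved means by the robust SD of all genes (0.28) or more. A list median moved where it left the binomial interval of the median over its genes, which is wide for short lists. At 1.5-fold, 901 genes rose and 793 fell in Shp2f/f, 1146 rose and 1338 fell in SCSKO, 642 had a higher and 1065 a lower change in SCSKO, and 353 maturation changes were smaller, 188 larger and 39 reversed. At 3-fold these counts were 127, 35, 149, 162, 28, 77, 18, 2 and 8. With probe sets as the unit they were 576, 324, 662, 837, 237 and 517, and 125 were smaller. With 16 added to the intensities 203 rose and 115 fell in Shp2f/f, 340 fell in SCSKO, 61 were higher and 178 lower, and 34 were smaller, 14 larger and 13 reversed. The mean of a gene's probe sets gave 20 larger changes. Genes chosen by the SCSKO change gave 10 smaller and 237 larger changes in SCSKO, and genes chosen by the mean of both gave 34, 130 and 4 reversed. Without the epididymal, duct and serous lining genes 10 were reversed.

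Among the medians, epididymal genes above the array median had changes of 1.94 in Shp2f/f and -0.71 in SCSKO and a difference of -2.60. With the mean of probe sets the cell division list had -0.59 in Shp2f/f and a difference of 0.14. With 16 added, the SCSKO change was 0.44 for leukocytes, 0.74 for meiotic prophase and 0.61 for germ cells in general. The mean over the leukocyte list, in place of its median, gave a difference of 0.094. The cause was not tested. No paired analysis was possible because each genotype and age had 1 array. The number of arrays limits the precision of every value.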

Other observations

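Of 10 measured genes made by mast cells, which were chosen after values were seen, Cma1, Cpa3, Mcpt4 and Tpsb2 fell in both genotypes. Cma1, a mast cell chymase, had a change of -2.41 in Shp2f/f and -2.49 in SCSKO, Cpa3, a carboxypeptidase of their granules, -2.27 and -1.96, and Mcpt4, another protease, -1.94 and -1.75. Mcpt2 had -2.67 and -0.70. Kit, which germ cells also make, rose in both, Hdc had 0.49 and 2.13, and Tpsab1, Fcer1a and Ms4a2 had changes between -0.23 and 0.24. Of 8 neutrophil genes, also chosen after values were seen, S100a8, S100a9, Stfa2l1 and Ngp were highest in Shp2f/f at 1W, and Camp, Ltf, Mpo and Elane were not. S100a9, a calcium-binding protein of neutrophils, was at 7.18 in Shp2f/f at 1W and between 5.07 and 5.70 on the other 3 arrays. S100a8, its partner, was at 7.81 on that array and between 5.48 and 6.67 on the others. Camp and Ltf, which mark neutrophil granules, had differences of -0.24 and 0.19.

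Genes of fat cells rose in both genotypes, 6 of 8 measured genes in each. Over all genes 1.84% rose in Shp2f/f and 2.14% in SCSKO. The summed intensity of the list was lower in SCSKO at both ages. It was 4241 in SCSKO and 6723 in Shp2f/f at 1W, and 15736 and 23609 at 2W. Adipoq, adiponectin, had a change of 2.47 in Shp2f/f and 2.45 in SCSKO, and Fabp4, a fatty acid carrier, 1.93 and 2.29. Cidec, a lipid droplet protein, rose by 2.50 and 1.29, a difference of -1.21.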
